A study of Homo sapiens with 6 samples.

Results

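The genes described here are those of WNT signalling that could be picked out by symbol on the array: the WNT ligands, the Frizzled receptors, the SFRP and Dickkopf inhibitors, and 21 further named regulators. Of these names, 53 genes had a probe set that names them alone, among 19775 genes compared in all, and 117 probe sets cover them. Each gene is represented by its probe set with the highest mean. The measured members are 17 WNT ligands, 9 Frizzled receptors, 4 SFRP genes, 4 Dickkopf genes and 19 of the further regulators. WNT3 and FZD8 have probe sets here only together with another gene, and TCF7, PORCN and WNT3A were not analysed here.

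The cells were HaCaT, a human keratinocyte line that became immortal in culture without an introduced gene, so all cultures share 1 cell line. The negative pressure cultures were held for 12 h in a negative-pressure incubator at a gradient of 125 mmHg, and the ambient pressure cultures were held for the same 12 h as untreated controls (3 biological replicates each). Both groups grew in the same serum-containing medium. Values are log2 RMA values, and every difference is negative minus ambient pressure.

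In the canonical pathway a WNT protein binds a Frizzled receptor together with LRP5 or LRP6, which halts the AXIN, APC and GSK3B complex that marks beta-catenin for destruction. Beta-catenin then joins TCF and LEF factors at target genes. Several of those targets, such as DKK1, AXIN2, NKD1, RNF43, ZNRF3 and SP5, encode proteins that dampen the signal again. In skin the pathway is known for its part in hair follicle formation and in the upkeep of epidermal stem cells, and WNT4 and WNT10A are among the ligands made by epidermal keratinocytes.

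All 9 measured markers of keratinocytes had means of 7.92 or more, above the median gene mean of 4.997. None of them passed without the block on replicate numbers described below, and with it DSG3, a desmosomal cadherin, rose (log2 difference 0.63, limma adjusted p = 0.153, with the block 0.0146). All 3 simple epithelium markers lay above the median too, and of these KRT19 rose with the block (0.42, adjusted p = 0.267, with the block 0.0498). Above that median lay 1 of 6 fibroblast markers, 0 of 4 melanocyte markers and 0 of 4 immune markers. Of 3 endothelial markers 1 lay above it. The endothelial cadherin gene CDH5, with a mean of 4.41, was lower under negative pressure (-0.80, limma adjusted p = 0.0325), while PECAM1 stood at -0.13 and VWF at 0.03, both with overlapping arrays. The part of these markers in the results below was not tested. The replicate 3 arrays of both groups stood apart from the other arrays on the first principal component (31.1 under negative and 20.3 at ambient pressure, against -18.3 to -9.07 for the rest), and pressure separated on the second. For ACTB, a control for RNA integrity, the 3′ probe set minus the 5′ one gave a log2 difference of 0.42 under negative and 0.27 at ambient pressure in replicate 3, against 0.64 to 0.85 in the other arrays. It was higher under negative pressure in each same-numbered pair, and that of GAPDH was lower in each. Their part in the results was not tested. A replicate 3 offset of the same sign in both groups was seen for 73.6% of the members and 67.1% of all genes.

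Under negative pressure the ligand genes WNT10A and WNT4 and the coreceptor gene LRP5 were the members with the largest positive differences, 1.75-fold, 1.53-fold and 1.69-fold. The secreted inhibitor gene DKK1 and the receptor-degrading ligase gene ZNRF3 were lower, 1.78-fold and 1.40-fold. With the replicate number as a block these 5 members passed an adjusted p of 0.05 in limma, 3 higher and 2 lower, which is 9.43% of the 53 members against 4.94% of all genes (2.87% higher and 2.06% lower). In the main fit, which has no block, none of the 53 passed, where 0.92% of all genes did. No label states that cultures with the same number were paired, and the correlations between arrays given below do not settle it. At an unadjusted p under 0.05 in limma there were 8 members (15.1%) against 11.7% of all genes, 5 higher and 3 lower (7.21% and 4.45% of all genes). The arrays of the groups did not overlap for 10 members (18.9%, against 17.3% of all genes), 5 higher and 5 lower, where 10.3% of all genes were higher and 6.96% lower.

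As a family the members did not lean one way. Their median difference was -0.02 on the log2 scale, beside 0.01 for all genes, with 25 above 0 and 28 below. For 44 of 53 members the difference lay within 0.25 of 0. The 95% interval of the difference stayed inside 2-fold in either direction for 50 members, and reached beyond it for WNT10A, LRP5 and DKK1.

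**Figure D1:**
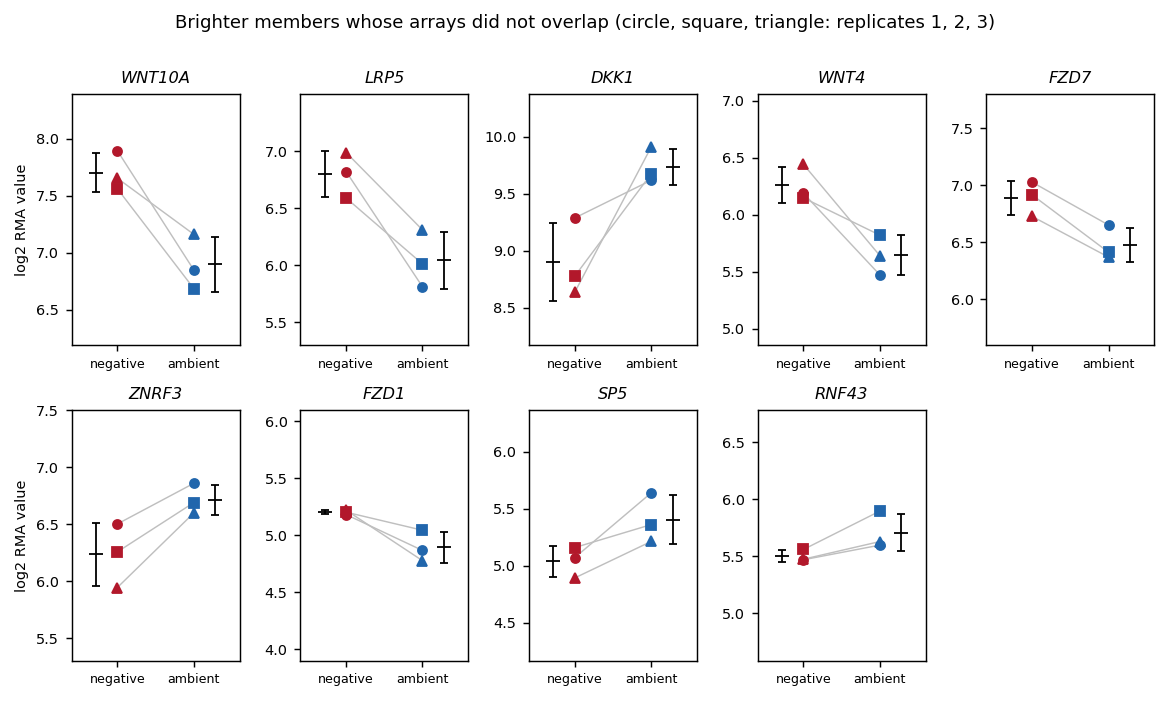
Log2 RMA value (y axis, each panel 2.2 units high) of the 9 members above the median gene mean whose arrays did not overlap, negative pressure left in red and ambient pressure right in blue. Points are arrays, grey lines join arrays with the same replicate number, and black bars are the mean and SD (n = 3 each); WNT10A, LRP5, WNT4, FZD7 and FZD1 lie higher and DKK1, ZNRF3, SP5 and RNF43 lower under negative pressure.

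Among the ligands, WNT10A, which acts in the epidermis and its appendages, had values of 7.90, 7.56 and 7.65 under negative pressure, against 6.85, 6.69 and 7.16 at ambient pressure. All 3 negative pressure arrays were above all 3 ambient arrays, and the highest ambient array was replicate 3. The log2 difference was 0.80 ± 0.15 (SE; limma adjusted p = 0.0512 without and 0.00499 with the block). Same-numbered arrays differed by 1.05, 0.88 and 0.49. Its other probe set, dimmer at a mean of 4.46, stood at 0.26, and with the mean of both WNT10A stood at 0.53 (adjusted p = 0.0426).

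WNT4, a ligand known from kidney and female reproductive tract development and made by basal keratinocytes, had values of 6.19, 6.15 and 6.44 under negative pressure, against 5.47, 5.82 and 5.64 at ambient pressure. The groups did not overlap. The difference was 0.61 ± 0.14 (SE; limma adjusted p = 0.0898, with the block 0.0169). A second WNT4 probe set gave 5.02, 5.01 and 5.05 under negative pressure, against 4.19, 4.71 and 4.86 at ambient pressure, again without overlap. The remaining one, with a mean of 3.14, stood at 0.08, and with the mean of all 3 WNT4 stood at 0.38 (adjusted p = 0.184).

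The remaining 15 ligands lay between -0.13 and 0.14, and the lowest limma adjusted p among them was 0.732, for WNT6. WNT5B, dim at a mean of 3.94, stood at 0.06. Its probe set of nearly the same brightness, with a mean of 3.91, stood at -0.31 without overlap (limma adjusted p over all probe sets = 0.325). The dimmest WNT5B probe set, with a mean of 2.15, stood at -0.26. WNT7A averaged 6.17 ± 0.21 under negative pressure and 6.26 ± 0.035 at ambient pressure (SD, n = 3 each), with overlapping arrays. WNT7B averaged 5.53 ± 0.10 and 5.52 ± 0.20 in the same order, a difference of 0.01. WNT5A, a ligand of the branch that does not act through beta-catenin, stood at -0.01 with a 95% interval from -0.29 to 0.27. WNT6, the neighbour of WNT10A on chromosome 2 whose annotated bounds overlap it, stood at 0.14 (95% interval -0.10 to 0.39). The other neighbouring pair among the members, WNT10B and WNT1 on chromosome 12, stood at 0.00 and 0.14.

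The 300-base windows around the annotated start sites of WNT10A and LRP5 are shown because these 2 genes had the largest positive differences. They are RefSeq windows of build GRCh38.p14, from 250 bases before to 50 bases after the start, at chr2:218880602-218880901 and chr11:68312341-68312640, both on the plus strand. Capitals mark the GC box letters GGGCGG on either strand.
WNT10A: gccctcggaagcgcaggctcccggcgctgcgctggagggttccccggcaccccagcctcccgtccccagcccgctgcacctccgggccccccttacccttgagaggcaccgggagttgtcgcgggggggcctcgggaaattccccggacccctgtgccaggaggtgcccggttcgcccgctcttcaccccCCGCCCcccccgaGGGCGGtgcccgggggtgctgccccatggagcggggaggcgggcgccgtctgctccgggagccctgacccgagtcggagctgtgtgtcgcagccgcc
LRP5: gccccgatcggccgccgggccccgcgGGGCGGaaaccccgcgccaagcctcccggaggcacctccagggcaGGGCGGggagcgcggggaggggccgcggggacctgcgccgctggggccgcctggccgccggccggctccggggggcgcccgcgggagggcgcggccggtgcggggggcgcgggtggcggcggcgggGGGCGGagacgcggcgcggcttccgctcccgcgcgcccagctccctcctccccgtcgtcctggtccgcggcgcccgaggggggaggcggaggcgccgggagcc
The WNT10A window holds 2 such matches and the LRP5 window 3. GC boxes were found in 26 of the 35 members that have a window (74.3%) and in 45% of all 35116 windows. Neither window holds a TCF/LEF match, described below with DKK1, or the letters TATAAA.

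Among receptors, LRP5, the single-pass coreceptor that passes the WNT signal to AXIN, had values of 6.82, 6.59 and 6.99 under negative pressure, against 5.81, 6.01 and 6.31 at ambient pressure. The groups did not overlap. The log2 difference was 0.76 ± 0.16 (SE; limma adjusted p = 0.0749, with the block 0.00507), and same-numbered arrays differed by 1.01, 0.58 and 0.68. The other LRP5 probe set, dimmer at a mean of 4.30, went the other way: 4.22, 4.08 and 4.33 under negative pressure, against 4.43, 4.34 and 4.40 at ambient pressure, a difference of -0.18. With the mean of both probe sets LRP5 stood at 0.29 (adjusted p = 0.344). LRP6, its paralogue, averaged 7.12 ± 0.15 under negative pressure and 6.99 ± 0.17 at ambient pressure (SD, n = 3 each), with overlapping arrays.

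Of the 9 Frizzled receptors none passed with or without the block. FZD7 had values of 7.03, 6.91 and 6.73 under negative pressure, against 6.65, 6.41 and 6.37 at ambient pressure. The groups did not overlap, and the difference was 0.41 ± 0.13 (SE; limma adjusted p = 0.236, with the block 0.0525). Its second probe set gave 0.38, also without overlap. FZD1 had 5.18, 5.20 and 5.22 under negative pressure, against 4.87, 5.04 and 4.78 at ambient pressure, a difference of 0.31 ± 0.12 (adjusted p = 0.333) at a level close to the median gene mean. Its other probe sets, with means of 3.21 and 1.54, stood at 0.13 and 0.04, and the mean of all 3 gave 0.16.

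FZD6, known for its part in planar polarity of skin and hair, had values of 8.51, 8.41 and 7.73 under negative pressure, against 8.52, 8.53 and 8.02 at ambient pressure. The replicate 3 arrays were lowest in both groups, and the groups overlapped (difference -0.14 ± 0.22, SE). LGR4, a receptor of the R-spondins that strengthen WNT signalling, was also lowest in replicate 3 of both groups. It had 7.58, 7.52 and 6.98 under negative pressure, against 7.52, 7.41 and 6.86 at ambient pressure. FZD6 and LGR4 were the 2 members whose replicate 3 array differed from the mean of the other arrays of its group by more than 0.4 in the same direction in both groups, which held for 3.77% of members and 7.33% of all genes. LGR5, a marker of hair follicle stem cells, was dim, with 2.84, 2.86 and 2.71 under negative pressure, against 2.97, 2.89 and 2.89 at ambient pressure. These LGR5 arrays did not overlap, at a difference of -0.12 (adjusted p = 0.8).

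**Figure D2:**
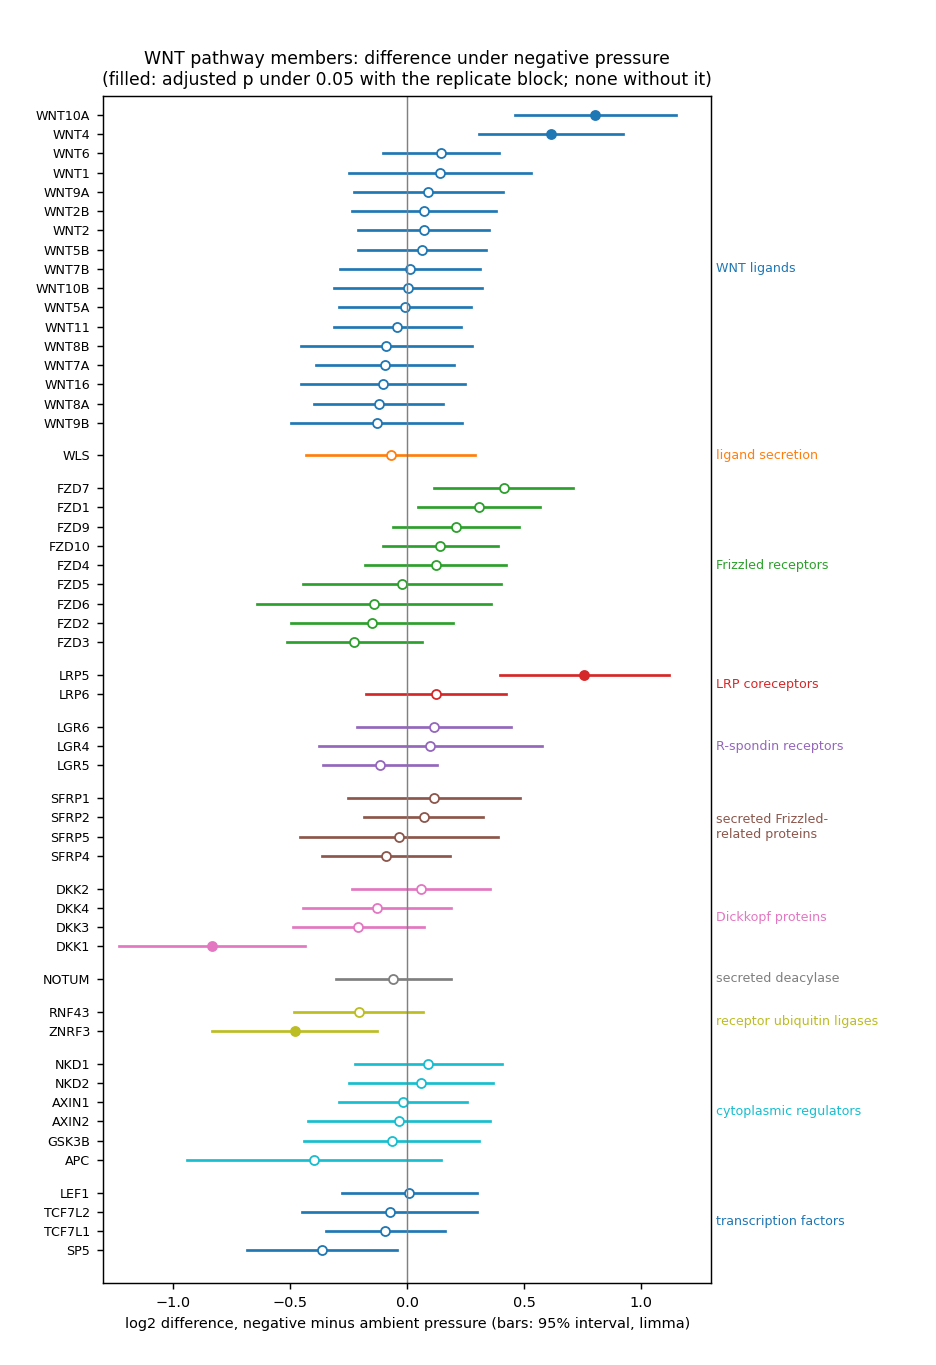
Log2 difference of negative minus ambient pressure (x axis) for all 53 members, grouped by role down the page, with 95% intervals from limma. Filled points are the 5 members with an adjusted p under 0.05 with the replicate block: WNT10A, WNT4 and LRP5 to the right of 0, DKK1 and ZNRF3 to the left.

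Among the secreted inhibitors, DKK1, which binds LRP5 and LRP6 and keeps them from the receptor complex, had values of 9.29, 8.78 and 8.64 under negative pressure, against 9.62, 9.67 and 9.91 at ambient pressure. All negative pressure arrays lay below all ambient arrays. The log2 difference was -0.83 ± 0.18 (SE; limma adjusted p = 0.075, with the block 0.0124), and same-numbered arrays differed by -0.33, -0.90 and -1.27. DKK1 has 1 probe set.

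DKK3, a divergent member of the family, averaged 9.53 ± 0.15 under negative pressure and 9.74 ± 0.11 at ambient pressure (SD, n = 3 each), with overlapping arrays. A further DKK3 probe set with a mean of 5.79 gave 5.51, 5.56 and 5.54 under negative pressure, against 6.08, 5.91 and 6.12 at ambient pressure, a difference of -0.50 without overlap (limma adjusted p over all probe sets = 0.112). Its other probe sets lay between -0.32 and 0.17. DKK2 and DKK4 were dim, with means of 1.97 and 3.13, and stood at 0.06 and -0.13.

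SFRP1, a secreted decoy receptor for WNT proteins, had values of 6.89, 6.79 and 6.27 under negative pressure, against 6.49, 6.58 and 6.53 at ambient pressure. The groups overlapped, and the difference was 0.12 ± 0.16 (SE). The other SFRP genes measured, SFRP2, SFRP4 and SFRP5, lay between -0.09 and 0.07. NOTUM, an enzyme that removes the lipid that WNT proteins need to bind Frizzled, stood at -0.06.

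ZNRF3 and RNF43 encode membrane ubiquitin ligases that remove Frizzled receptors from the cell surface. ZNRF3 had values of 6.50, 6.26 and 5.94 under negative pressure, against 6.86, 6.69 and 6.60 at ambient pressure. The groups did not overlap, and the difference was -0.48 ± 0.16 (SE; limma adjusted p = 0.246, with the block 0.0332). RNF43 had 5.47, 5.56 and 5.47 under negative pressure, against 5.60, 5.90 and 5.63 at ambient pressure, without overlap (difference -0.21 ± 0.12, SE; limma adjusted p = 0.601, with the block 0.357). Without ambient replicate 2, the highest array, the RNF43 difference was -0.11.

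SP5, a zinc finger factor that represses in the WNT pathway, had values of 5.07, 5.16 and 4.89 under negative pressure, against 5.64, 5.36 and 5.21 at ambient pressure. The groups did not overlap, and the difference was -0.36 ± 0.14 (SE; limma adjusted p = 0.35, with the block 0.101). Its mean of 5.22 was close to the median gene mean.

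DKK1 and SP5 are the only 2 of the 35 members with a RefSeq window that hold the letters CTTTGAA or CTTTGAT, of the kind TCF and LEF factors bind, on either strand. Of all 35116 windows 6.86% hold such a match, and of the members' windows 5.71%. They are shown because both genes are known WNT targets and both lay lower under negative pressure. The windows are at chr10:52314031-52314330 for DKK1 and chr2:170715087-170715386 for SP5, plus strand, GRCh38.p14, with the TCF/LEF letters in capitals.
DKK1: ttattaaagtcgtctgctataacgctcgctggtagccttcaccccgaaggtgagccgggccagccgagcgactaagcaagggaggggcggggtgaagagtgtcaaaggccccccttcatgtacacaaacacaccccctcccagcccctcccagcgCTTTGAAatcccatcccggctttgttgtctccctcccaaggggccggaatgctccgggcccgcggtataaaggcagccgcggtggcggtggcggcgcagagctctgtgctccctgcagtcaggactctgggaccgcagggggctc
SP5: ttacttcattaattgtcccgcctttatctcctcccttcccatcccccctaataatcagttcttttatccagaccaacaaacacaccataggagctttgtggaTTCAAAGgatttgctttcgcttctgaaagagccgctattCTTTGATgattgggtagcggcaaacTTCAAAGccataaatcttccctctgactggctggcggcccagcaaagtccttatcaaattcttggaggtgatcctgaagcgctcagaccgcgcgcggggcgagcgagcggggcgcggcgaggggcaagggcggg
Counted in bases from the start site, the match in DKK1 begins at -95. Those in SP5 begin at -148, -109 and -84, the outer ones on the minus strand. DKK1 also has the letters TATAAA at -30, as the 1 member of 35 with a match (11.5% of all windows). The AP-1 letters TGANTCA, in 7.71% of all windows, were found in 0 of the 35. A match is a run of letters and says nothing of binding. RNF43, another known target that lay lower, has a window without a TCF/LEF match. For ZNRF3 and AXIN2 there was no window among those used here.

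Of the other target and feedback genes, AXIN2, NKD1 and LEF1 overlapped between the groups. AXIN2, a scaffold of the destruction complex and a widely used readout of beta-catenin, had values of 4.45, 4.22 and 4.79 under negative pressure, against 4.61, 4.27 and 4.68 at ambient pressure. The difference was -0.04 with a 95% interval from -0.42 to 0.35, and its 4 probe sets lay between -0.07 and 0.20. NKD1, which binds Dishevelled, had 4.69, 4.90 and 4.99 under negative pressure, against 4.54, 4.88 and 4.88 at ambient pressure (0.09, 95% interval -0.22 to 0.41). LEF1, a DNA-binding partner of beta-catenin and also a target, had 4.12, 3.89 and 3.72 under negative pressure, against 3.90, 3.90 and 3.89 at ambient pressure (0.01, 95% interval -0.28 to 0.30). AXIN2, NKD1, LEF1 and LGR5 all lay below the median gene mean, and their interval covers the spread of arrays only.

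Of the members of the destruction complex, APC, a scaffold that binds beta-catenin, had 5.88, 5.85 and 4.94 under negative pressure, against 6.11, 6.02 and 5.73 at ambient pressure (difference -0.40 ± 0.24, SE; limma adjusted p = 0.617). The low array was negative pressure replicate 3, and the other 4 APC probe sets lay between -0.11 and 0.21. GSK3B, its kinase, stood at -0.07, and a second bright GSK3B probe set gave 7.88, 7.79 and 7.91 under negative pressure, against 8.09, 8.07 and 8.06 at ambient pressure, without overlap (-0.21). AXIN1 stood at -0.02. TCF7L2, a DNA-binding partner of beta-catenin, averaged 7.64 ± 0.22 under negative pressure and 7.71 ± 0.26 at ambient pressure (SD, n = 3 each), and its 7 probe sets lay between -0.32 and 0.11.

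Probe sets of 1 member often differed. Of 31 members with several probe sets, 16 had all of them on the same side of 0. WLS, the carrier that brings WNT proteins to the cell surface, stood at -0.07 by its brightest probe set (8.45, 8.53 and 8.07 under negative pressure, against 8.55, 8.53 and 8.19 at ambient pressure). Another WLS probe set with a mean of 7.18 gave 6.97, 7.04 and 6.69 under negative pressure, against 7.61, 7.42 and 7.35 at ambient pressure. It did not overlap between the groups, at -0.56 ± 0.14 (SE; limma adjusted p over all probe sets = 0.142). The remaining probe set stood at -0.18. None of the 117 probe sets passed when every probe set was tested.

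**Figure D3:**
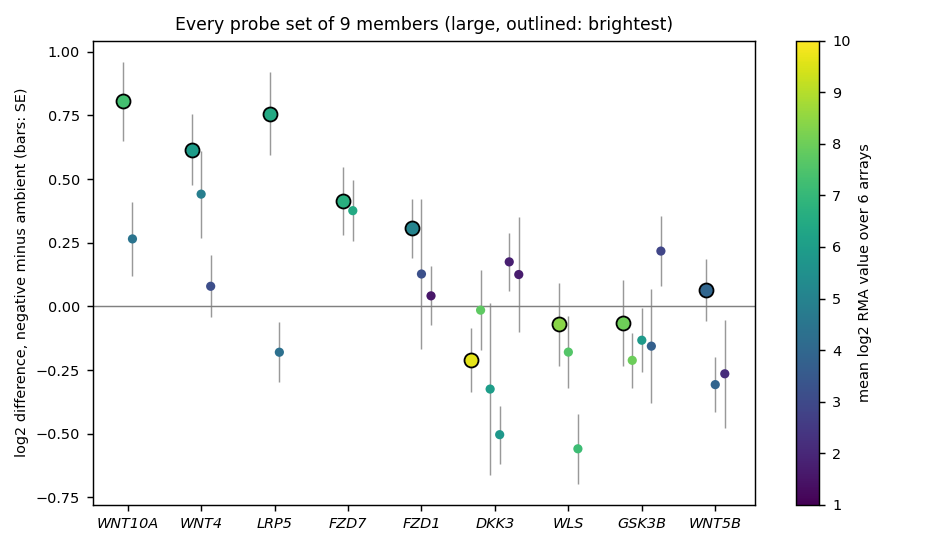
Log2 difference of negative minus ambient pressure (y axis, bars are SE) for every probe set of 9 members, coloured by mean log2 RMA value. Large outlined points are the brightest probe set of each gene; the probe sets of FZD7 lie together near 0.4, whereas those of LRP5 lie at 0.76 and -0.18 and those of WLS between -0.56 and -0.07.

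Other genes of the pathway were read from 4 lists. Of 25 further ligands, coreceptors and antagonists, 1 rose and none fell, and with the block 2 rose and 1 fell. With the block that is 12% of the list, against 4.94% of all genes, and 0.92% of all genes passed without it. The gene that rose was SOST, which encodes sclerostin, a secreted inhibitor of LRP5 and LRP6 best known from bone. Its values were 6.06, 5.90 and 5.74 under negative pressure, against 5.08, 4.94 and 4.93 at ambient pressure. The groups did not overlap, and the difference was 0.91 ± 0.12 (SE; limma adjusted p = 0.0182, with the block 0.00137). SOST lost its call when replicate 1 or 2 of either group was left out (adjusted p of 0.079 to 0.117). In those fits 0.0354% to 0.091% of all genes passed.

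With the block, TPBG, a membrane protein that modulates the WNT receptor complex, rose as well. It had 9.60, 9.55 and 9.41 under negative pressure, against 9.16, 8.96 and 8.80 at ambient pressure (0.55 ± 0.13, SE; limma adjusted p = 0.109, with the block 0.0169). ROR1, a receptor tyrosine kinase for WNT5A, fell with the block, with 6.46, 5.997 and 5.77 under negative pressure, against 6.65, 6.69 and 6.78 at ambient pressure (-0.63 ± 0.17, SE; adjusted p = 0.156, with the block 0.0311). The R-spondin genes RSPO1, RSPO2, RSPO3 and RSPO4 did not pass in either fit.

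In the signal transducer list 0 of 20 measured genes passed in limma (4 at an unadjusted p under 0.05), and with the block FRAT1, a GSK3-binding protein, rose. That is 5% of the list with the block, near the 4.94% of all genes, and 11.7% of all genes had an unadjusted p under 0.05. FRAT1 had 4.32, 4.39 and 4.65 under negative pressure, against 4.16, 3.78 and 3.83 at ambient pressure (0.53 ± 0.15, SE; limma adjusted p = 0.164, with the block 0.046). Its mean of 4.19 lay below the median gene mean. CTNNB1, the beta-catenin gene, had 9.47, 9.68 and 8.58 under negative pressure, against 9.89, 9.68 and 8.52 at ambient pressure, with both replicate 3 arrays low. Of 18 nuclear partners 0 passed in limma (1 at an unadjusted p under 0.05) and TBL1X, a subunit of a corepressor complex, rose with the block. With the block that is 5.56% of the list, again near the 4.94% of all genes. TBL1X had 6.47, 6.55 and 6.18 under negative pressure, against 5.80, 5.80 and 6.04 at ambient pressure (0.52 ± 0.14, SE; limma adjusted p = 0.149, with the block 0.0488). With the mean of its probe sets the difference was 0.16. Of the nuclear partners 17 of 18 lay above 0, with a median of 0.16, where 53.4% of all genes lay above 0 with a median of 0.01. Among those above 0, CTBP1, TBL1XR1, EP300 and BCL9 lay between 0.0016 and 0.012. The count above 0 was not tested.

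Of 14 planar polarity genes, which include the members FZD3 and FZD6, 0 passed in limma (3 at an unadjusted p under 0.05) and CELSR2, an atypical cadherin, rose with the block. With the block that is 7.14% of the list, against 4.94% of all genes. CELSR2 had 7.004, 6.74 and 6.87 under negative pressure, against 6.51, 6.40 and 6.35 at ambient pressure (0.45 ± 0.12, SE; limma adjusted p = 0.149, with the block 0.0376). CELSR1, PRICKLE3 and CELSR2 were the 3 with an unadjusted p under 0.05 in this list, at 0.39, 0.43 and 0.45. Of all genes 11.7% had an unadjusted p under 0.05 in limma.

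**Figure D4:**
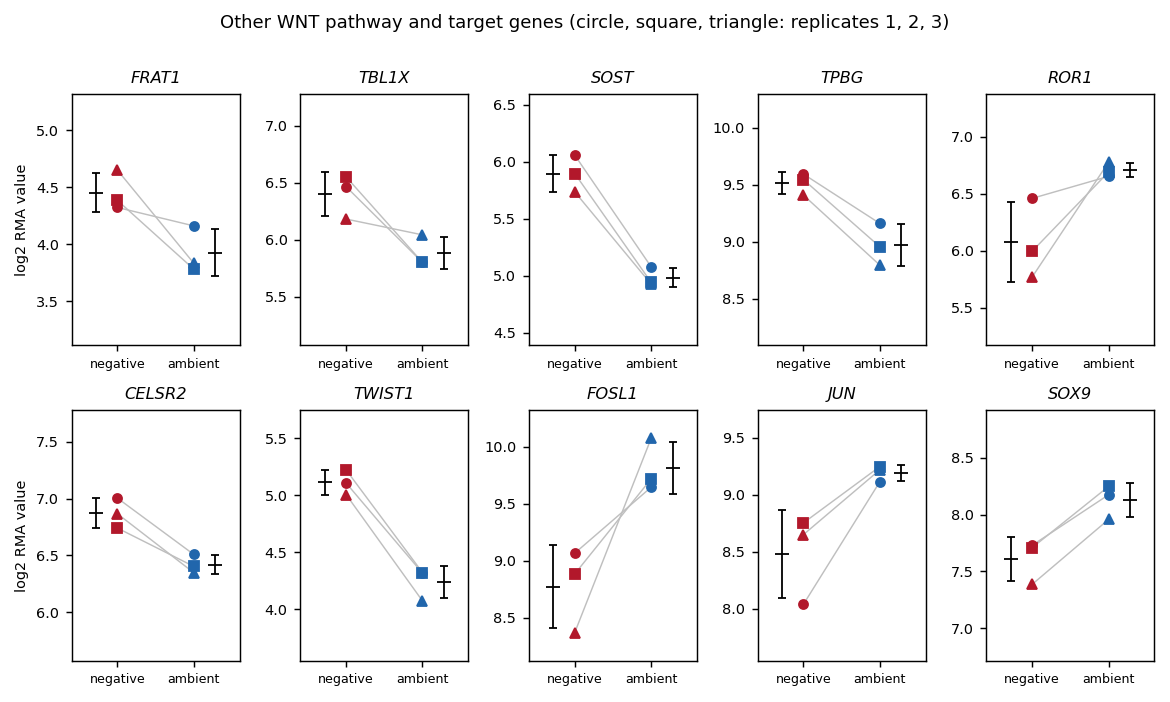
Log2 RMA value (y axis, each panel 2.2 units high) of 10 other pathway and target genes, negative pressure left in red and ambient pressure right in blue, with replicate numbers joined by grey lines and the mean and SD in black (n = 3 each). SOST, TWIST1, TPBG, CELSR2, FRAT1 and TBL1X lie higher and FOSL1, JUN, SOX9 and ROR1 lower under negative pressure, without overlap between the arrays.

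Genes known as beta-catenin targets in some tissue, many of which have other regulators, went both ways. Of 26 measured, 1 rose, 1 fell and 24 did not pass, and with the block 3 rose and 4 fell (26.9%, against 4.94% of all genes). TWIST1, a helix-loop-helix factor of mesenchymal cells, had 5.11, 5.22 and 5.01 under negative pressure, against 4.32, 4.32 and 4.07 at ambient pressure (0.88 ± 0.12, SE; limma adjusted p = 0.0211). The TWIST1 mean of 4.68 lay below the median gene mean. FOSL1, an AP-1 subunit, fell, with 9.07, 8.88 and 8.37 under negative pressure, against 9.65, 9.72 and 10.07 at ambient pressure (-1.04 ± 0.19, SE; adjusted p = 0.0467). TWIST1 lost its call when replicate 1 or 2 of either group was left out (adjusted p of 0.0882 to 0.11), and FOSL1 when any 1 array was (0.0611 to 0.177). Few genes passed without replicate 1 or 2 of either group, 0.0354% to 0.091% of all genes, against 0.92% with all arrays. Without replicate 3 of the negative or the ambient pressure group 0.733% and 0.516% passed.

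JUN, another AP-1 subunit, fell with the block, with 8.04, 8.75 and 8.65 under negative pressure, against 9.12, 9.25 and 9.22 at ambient pressure (-0.71 ± 0.18, SE; limma adjusted p = 0.138, with the block 0.011). SOX9, a factor of hair follicle stem cells, also fell with the block, with 7.73, 7.71 and 7.39 under negative pressure, against 8.17, 8.25 and 7.96 at ambient pressure (-0.52 ± 0.14, SE; adjusted p = 0.152, with the block 0.0199). Neither overlapped between the groups. ID2 and MMP7 rose with the block, ID2 at 0.65 (limma adjusted p = 0.202, with the block 0.0201). MMP7, with a mean of 4.40 below the median gene mean, stood at 0.64 (limma adjusted p = 0.328, with the block 0.0219). BIRC5 fell with the block, at -0.46 (limma adjusted p = 0.183, with the block 0.0351). MYC stood at 0.26, CCND1 at -0.38 and CD44 at -0.22, and none of these passed in either fit.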

How the data were processed

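Total RNA from 6 HaCaT cultures, 3 under negative and 3 at ambient pressure, was read on Affymetrix arrays with 54675 probe sets. The deposited values are on the log2 scale, and the submitters' processing notes name RMA and Affymetrix Expression Console 1.2 for the steps by which the authors made them. The values ran from 0.890 to 13.4 with array medians of 3.81 to 3.89. On filters, array batches and scan dates the sources used here give nothing. The number of arrays limits the precision.

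By the platform annotation 41091 probe sets carry 1 symbol, 1801 more than 1 and 11721 no symbol, besides 62 controls. The gene identifiers of 41037 matched the RefSeq gene table of GRCh38.p14. Probe sets with more than 1 symbol name no gene here. The 2 groups were fitted in limma 3.58.1 (lmFit, eBayes; R 4.3.3) over 19775 genes with no filter, at a Benjamini-Hochberg adjusted p under 0.05. The fit was tested on simulated data. A gene's adjusted p comes from this limma fit.

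The groups share replicate numbers. Deviations from the group means correlated at 0.27, 0.27 and 0.53 between arrays numbered 1, 2 and 3, all over 0.1. The cultures were therefore treated as pairs, and the fit with the replicate block stands beside the unblocked one. The pairing rests on this check and on no stated shared day. Negative pressure replicate 2 correlated more with ambient replicate 1 (0.43), and an offset of replicate 3 alone can raise all 3 values.

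Arrays are given in full for members that passed in either fit, for members above the median gene mean whose arrays did not overlap, and for a set of known target and keratinocyte genes. From the other lists the arrays are given for up to 4 genes each that passed in either fit. The further target genes that passed are given by their difference. The remaining genes with values, such as LGR4, APC, DKK3, WLS, GSK3B, WNT5A, CTNNB1, MYC, DSG3, KRT19 and CDH5, were picked with their values in view. The members and lists were chosen with earlier results of these data known. Start site windows are RefSeq sequences of GRCh38.p14, matched by symbol for 35 of 53 members and searched for motifs chosen after the values were seen.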

Additional observations from a re-analysis of the deposited data

How the results depend on the processing

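With 3 arrays a group and small differences, the count of members past the threshold depended on the setting. It was 0 without and 5 with the replicate block, and the block also gave 1 signal transducer, 1 nuclear partner, 3 further ligands and antagonists, 1 planar polarity gene and 7 target genes. Of all genes 0.92% passed without the block and 4.94% with it. Array weights gave 5 members (WNT10A, LRP5, WNT4 and FZD7 higher, DKK1 lower), where 5.79% of all genes passed, and 1, 1, 2, 3 and 6 genes in the same lists. Cyclic loess gave 1 member (DKK1; 1.21% of all genes), leaving out the 6592 dimmest genes 1 (WNT10A; 1.45%), the mean of all probe sets 1 (WNT10A; 0.936%) and leaving out both replicate 3 arrays 2 (LRP5 and WNT10A; 1.88%) with 1 nuclear partner. Repeated quantile normalization gave 0 members (1.12% of all genes), median centring 0 (0.738%) and limma's trend and robust options 0 (0.89%). Each gene's most variable probe set gave 0 members as well (0.875%). At an adjusted p under 0.1 there were 4 members (7.55%, against 1.78% of all genes). Leaving out 1 array gave 0 to 1 members, the 1 being WNT10A without ambient replicate 3 (adjusted p = 0.0441), where 0.516% of all genes passed. Without replicate 1 or 2 of either group no member passed, where only 0.0354% to 0.091% of all genes did. Without negative pressure replicate 3 none passed either, where 0.733% of all genes did. Leaving out 1 array gave 0 to 1 of the further ligands and antagonists and 0 to 1 target genes, median centring 1 target gene and the mean of probe sets 4. Those 4 were TWIST1, higher, and FOSL1, JUN and SOX9, lower, where 0.936% of all genes passed. The cause of these changes was not tested. With each gene's most variable probe set ROR1 was -1.11, JUN -1.13 and SOX9 -0.91, while FZD1 went from 0.31 to 0.13. There JUN and TWIST1 were the target genes that passed, where 0.875% of all genes did. Over all the alternative settings TBL1X ran from 0.061 to 0.71. The members' median stayed between -0.05 and 0.01.

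A few differences near 0 changed sign. AXIN2 was 0.020 with the mean of probe sets, 0.0024 with array weights and -0.19 to 0.10 with 1 array left out. LEF1 was -0.0054 with repeated quantile normalization, -0.0020 with median centring, -0.0067 with cyclic loess, -0.019 when each gene's most variable probe set was used and -0.10 to 0.10 with 1 array left out. WNT7B was -0.00042 with median centring, -0.020 with cyclic loess and -0.081 to 0.11 with 1 array left out. With 1 array left out NKD1 ran from -0.023 to 0.17, FZD6 from -0.31 to 0.10 and SFRP1 from -0.0031 to 0.30.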
